A study of Mus musculus with 33 samples.

Results

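Kupffer cells (KCs) of the liver and alveolar macrophages (AMs) of the lung were compared after loss of Zeb2 in both, using Tim4- KCs (genotype Clec4f-crexZeb2fl/fl) and CD11b+ AMs (genotype Itgax-crexZeb2fl/fl). The samples were chosen by their source names, which gave 6 Tim4- KC and 5 CD11b+ AM samples, 11 of the 33 bulk RNA-seq samples of the series. All 24421 gene rows of each count file were used. The reference was the same tissue comparison in Zeb2-sufficient cells, with 6 samples of CRE- KCs and 5 samples of CRE- AMs. The question was which differences between liver and lung macs remained in the most altered populations, which faded and which were new.

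The study sorted macs from each tissue by flow cytometry and sequenced the RNA of bulk populations. Zeb2 was deleted by Clec4f-driven Cre in KCs and by Itgax-driven Cre in AMs, so the driver differs wherever the tissue differs and the 2 cannot be told apart. CRE- mice carry the floxed Zeb2 alleles without Cre, and CRE- samples were not split by Tim4 or CD11b. In every comparison with CRE- samples, the deletion and the choice of a sorted subset therefore cannot be told apart. The labels give no age, and the study's general methods put its mice at 6 to 8 weeks. Tim4 and CD11b, encoded by Timd4 and Itgam, are sort markers of the CRE+ populations, while SiglecF and CD11c (Siglecf and Itgax) are part of the AM gate and Clec4F is used on KCs, so the levels of these genes are set in part by the sort. The Tim4- KC gate can also hold cells that keep a copy of Zeb2, as the study describes. No label says which animals gave which samples, so p-values measure the spread between samples, which may be in part technical.

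Resident macs are settled in each organ early in life and take on an organ-specific program. KCs line the liver sinusoids, where they take up aged red cells, recycle their iron and clear particles coated with complement, under the nuclear receptor LXRα. AMs sit in the air spaces, where GM-CSF and the nuclear receptor PPARγ drive a program of surfactant lipid uptake. ZEB2 is a zinc finger repressor best known for shutting down epithelial genes such as the one for E-cadherin.

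Between 9837240 and 24332306 reads per Tim4- KC sample were counted on genes (median 20721544.5, with replicate 1 the shallowest), and between 18565504 and 21665391 per CD11b+ AM sample. The 22 samples of the 4 groups were fitted together. Levels are given as CPM, counts relative to the library total scaled by TMM factors, and at this depth 3 counts, taken as the floor of detection, correspond to 0.165 CPM in a Tim4- KC library and 0.164 CPM in a CD11b+ AM library. Every AM library held at most 1 Y-linked count, whereas replicates 5 and 6 of each KC group, 2 of 6 samples, expressed Y-linked genes. Samples correlated with r of 0.907 to 0.954 among Tim4- KCs and 0.956 to 0.965 among CD11b+ AMs. Reads of the deleted gene do not check the deletion, since the floxed allele still gives a shortened transcript: Zeb2 had 146 to 192 CPM (median 167) in Tim4- KCs and 69.7, 67.7, 59.3, 61.8 and 50.02 CPM in CD11b+ AMs, against 228 to 334 CPM in CRE- KCs and 168 to 205 CPM in CRE- AMs. General mac markers were present in both altered groups, with the summed level of 10 such genes at 16825 to 18618 CPM in Tim4- KCs and 34282 to 41697 CPM in CD11b+ AMs.

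The number of genes that differed between liver and lung macs was similar in altered and CRE- macs, but part of the list was exchanged. Of 12943 genes tested, 2578 (19.9%) were higher in Tim4- KCs and 1872 (14.5%) were higher in CD11b+ AMs, in all 34.4%, at a Benjamini-Hochberg adjusted p under 0.05 in edgeR's quasi-likelihood test and a fold change of over 1 log2 unit either way. The samples of the 2 groups did not overlap for 42.1% of genes. In CRE- macs, 2751 genes (21.3%) were higher in KCs and 1626 (12.6%) were higher in AMs, in all 33.8%, and 46.8% of genes did not overlap. The genes called in both genotypes were 2019 on the KC side, which is 78.3% of the calls in altered macs and 73.4% of those in CRE- macs, and 1187 on the AM side, which is 63.4% and 73% of the respective lists. No sample is shared between the 2 comparisons. The median absolute log2 fold change over all genes tested was 0.65 in altered macs and 0.63 in CRE- macs, and across genes, which are not independent replicates, the log2 fold changes of the 2 comparisons had a Pearson r of 0.808. Between tissues, samples correlated with r of 0.700 to 0.724 in altered macs and 0.648 to 0.696 in CRE- macs.

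The change of each tissue difference was tested as an interaction, the log2 fold change of Tim4- KCs over CD11b+ AMs less that of CRE- KCs over CRE- AMs. It moved towards KCs for 684 genes (5.28%) and towards AMs for 1184 genes (9.15%), in all 14.4%. A difference was taken as kept when it was called in both genotypes in 1 direction, as faded when its call was lost and the interaction was called against it, as new when the call was gained and the interaction was called with it, and as turned when it was called in both genotypes in opposite directions. On the KC side 2019 genes (15.6%) were kept, 250 (1.93%) faded, 179 (1.38%) were new and 20 (0.155%) had turned from AMs to KCs. On the AM side 1187 genes (9.17%) were kept, 139 (1.07%) faded, 264 (2.04%) were new and 79 (0.61%) had turned from KCs to AMs. Some of these genes were low throughout. On the KC side 665 kept, 71 faded, 35 new and 7 turned genes had means below 5 CPM in all 4 groups. On the AM side 150, 23, 55 and 18 did, and among all genes tested 2633. A call was lost without a called interaction for 403 genes on the KC side and 280 on the AM side, and gained without one for 360 and 342, so no change was shown for them. Among the kept differences, 381 on the KC side had narrowed and 98 had widened, against 155 and 130 on the AM side. When libraries were scaled by their totals alone, the median log2 fold change of all genes rose by 0.19. The share of calls that were higher in KCs went from 57.9% to 64.7%. Fold changes below that shift have no firm direction. The median interaction rose by 0.176, and 969 genes moved towards KCs and 1011 towards AMs. With this scaling 206 differences faded on the KC side and 200 on the AM side, and 263 and 212 were new. The balance between the 2 sides in these counts therefore depends on the scaling.

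**Figure D1:**
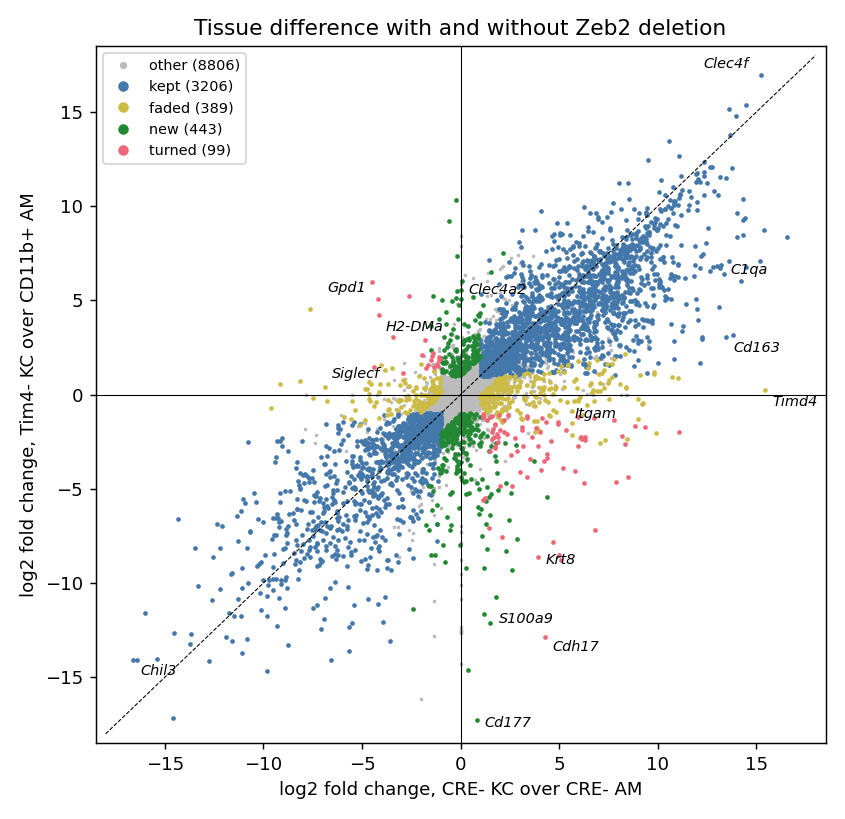
Each point is 1 of the 12943 genes tested; the x axis is the log2 fold change of CRE- KCs (n = 6) over CRE- AMs (n = 5) and the y axis that of Tim4- KCs (n = 6) over CD11b+ AMs (n = 5), with the dashed line marking equal values. Most coloured points are the 3206 kept differences along the line, the 389 faded genes lie near the horizontal zero line, the 443 new ones near the vertical zero line, and the 99 turned genes in the upper left and lower right of the plot.

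Which group's level had moved was read from the 4 group means. Among the 250 differences that faded on the KC side, the AM mean stood higher in CD11b+ AMs than in CRE- AMs for 243 genes, and the AM mean had moved further than the KC mean for 193 (77.2%), against 56.7% of all genes tested. Among the 264 new differences on the AM side, the AM mean had moved further for 201 (76.1%), and among the 79 that turned to AMs for 72 (91.1%). Of the 139 differences that faded on the AM side, the AM mean stood lower for 118 and the KC mean higher for 113, and the AM mean had moved further for 84 (60.4%). These counts follow in part from how the classes are defined and carry no test.

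Most of the KC program remained higher in KCs. Counts in this and the later gene lists can be set against all genes tested. Of these, 19.9% were higher in Tim4- KCs and 14.5% in CD11b+ AMs, while 5.28% moved towards KCs and 9.15% towards AMs. Of 35 genes listed for KC identity, all tested, 31 were higher in Tim4- KCs than in CD11b+ AMs and 1 was lower, with a median log2 fold change of 6.42 against 0.07 over all genes. All 31 were kept from CRE- macs, where the median of the list was 10.13, or 9.99 with genes without a count in 1 group set at their bound. The difference was smaller in the altered macs for 19 of the 31 and larger for 1, Clec1b. For all 22 list members whose difference moved towards AMs, the mean was higher in CD11b+ AMs than in CRE- AMs, and for 18 of them it was lower in Tim4- KCs than in CRE- KCs.

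Clec4f, which encodes the C-type lectin that marks KCs and drives the Cre, lies at chr6:83644542-83656187, minus strand (GRCm38). It had 2666 to 4012 CPM (median 3675) in Tim4- KCs and 0.0605, 0, 0.0518, 0 and 0 CPM in CD11b+ AMs, where it was counted 2 times in all. Every Tim4- KC sample lay far above every CD11b+ AM sample, and all lay below the CRE- KCs at 10207 to 11888 CPM. The ratio of the summed counts between Tim4- KCs and CD11b+ AMs was 168000 (95% exact interval 46400 to 1380000), counting error only, and the fitted log2 fold change was 16.96 (SE 0.25, adjusted p = 3.98e-24, edgeR's quasi-likelihood test).

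Cd207, which encodes langerin, a lectin of antigen-capturing cells, had 523 to 2574 CPM (median 1109) in Tim4- KCs and 0.0605, 0, 0, 0.0524 and 0 CPM in CD11b+ AMs. The groups did not overlap, which the choice of the named genes required, and the Tim4- KC sample of replicate 1 was the highest. Its level in CRE- KCs was 414 to 809.8 CPM, and the ratio of Tim4- KCs over CD11b+ AMs was 48600 (95% exact interval 13400 to 401000). Tlr12, a Toll-like receptor for protozoan profilin, had 188 to 289 CPM (median 222) in Tim4- KCs and no count in any CD11b+ AM library. The difference was at least 1380-fold, measured against the floor of 3 counts per library. Gbp2b, an interferon-induced guanylate-binding GTPase, had 108 to 342 CPM (median 156) in Tim4- KCs and no count in CD11b+ AMs, an at least 1060-fold difference. CRE- KCs had 154 to 263 CPM of Tlr12 and 210.2 to 295 CPM of Gbp2b.

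Genes of iron recycling showed the kept difference and its narrowing side by side. Slc40a1, which encodes the iron exporter ferroportin, had 10216 to 15748 CPM (median 11056) in Tim4- KCs and 24.2, 21.4, 20.7, 28.1 and 49.3 CPM in CD11b+ AMs. The groups were far apart, as in CRE- macs, with log2 fold changes of 8.68 (SE 0.25) and 8.97 (SE 0.25) and an interaction of -0.29 (adjusted p = 0.432, edgeR's quasi-likelihood test). Cd163, the scavenger receptor for hemoglobin-haptoglobin complexes, had 34.7 to 73.9 CPM (median 53.1) in Tim4- KCs and 2.54, 6.20, 5.23, 10.8 and 6.68 CPM in CD11b+ AMs. All Tim4- KC samples were above all CD11b+ AM samples, but both lay between the CRE- groups, at 1090.4 to 1497 CPM in CRE- KCs and 0 to 0.365 CPM in CRE- AMs. The log2 fold change was 3.04 in place of 13.48, an interaction of -10.44 (SE 0.53, adjusted p = 4.73e-13, edgeR's quasi-likelihood test).

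Hmox1, which encodes heme oxygenase, had 542 to 933 CPM (median 791) in Tim4- KCs and 440.3, 497, 782, 609.7 and 633 CPM in CD11b+ AMs, and the groups overlapped. In CRE- macs it had 1183 to 2342 CPM in KCs and 203 to 349 CPM in AMs, so the difference faded (interaction -2.16, adjusted p = 4.37e-07, edgeR's quasi-likelihood test). Tfrc, the transferrin receptor, likewise faded, with a log2 fold change of 0.72 against 3.003 in CRE- macs. Of 16 tested genes of heme and iron handling, 8 were higher in Tim4- KCs and 2 were higher in CD11b+ AMs. The shares of all genes tested were 19.9% and 14.5%. On the KC side 7 were kept and 1, the heme transporter Slc48a1, was new. On the AM side 1 was kept (Fth1, ferritin heavy chain) and 1 was new (Trf, transferrin).

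Complement genes moved mostly towards AMs: of 19 tested members, 13 moved that way and 2 towards KCs. C1qa, C1qb and C1qc, the chains of the recognition unit C1q, kept their higher level in KCs. C1qa had 3870.2 to 4536 CPM (median 4264) in Tim4- KCs and 74.1, 28.7, 18.54, 83.1 and 47.7 CPM in CD11b+ AMs, whereas CRE- AMs had 0.0456 to 1.26 CPM. Its log2 fold change was 6.39 (SE 0.34) in altered macs and 13.33 in CRE- macs, an interaction of -6.94 (adjusted p = 1.97e-10, edgeR's quasi-likelihood test). The interactions of C1qb and C1qc were -6.37 and -6.39.

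C6, a subunit of the membrane attack complex, had 151 to 333 CPM (median 246) in Tim4- KCs and 0.0605, 0, 0.311, 1.10 and 0.461 CPM in CD11b+ AMs. The groups stayed far apart, while the level in Tim4- KCs was below that of every CRE- KC sample (1111 to 1452 CPM). C2, a protease of the classical pathway, turned: it had 2.82 to 13.6 CPM (median 9.15) in Tim4- KCs and 24.8, 14.4, 20.5, 15.3 and 25.3 CPM in CD11b+ AMs, with 148 to 275 CPM in CRE- KCs and 1.14 to 3.27 CPM in CRE- AMs. All CD11b+ AM samples were above all Tim4- KC samples, and the log2 fold change went from 6.76 to -1.24 (interaction -7.997, SE 0.45, adjusted p = 3.71e-12, edgeR's quasi-likelihood test). C3, the central complement component, was kept on the AM side, with a log2 fold change of -2.45 in altered and -1.11 in CRE- macs, and Cfb, factor B of the alternative pathway, was new there (log2 fold change -1.33 against 0.07). In all, 11 members were higher in Tim4- KCs and 5 in CD11b+ AMs, against 19.9% and 14.5% of all genes tested.

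Vsig4, the complement receptor of KCs, had 982 to 1785 CPM (median 1422) in Tim4- KCs and 0.181, 3.88, 0.984, 5.19 and 0.173 CPM in CD11b+ AMs, in which replicates 2 and 4 were the highest. The same CD11b+ AM sample of replicate 4 was the highest for Cd163, Fcna (ficolin A) and Timd4. Fcna had 7.38, 8.87, 3.78, 37.9 and 4.90 CPM there and 547 to 1211 CPM (median 1008) in Tim4- KCs. Cd5l, a scavenger protein under LXR control, had 3578 to 5481 CPM (median 4192) in Tim4- KCs and 1.33, 1.21, 0.0518, 2.62 and 0 CPM in CD11b+ AMs, and its interaction of -1.72 did not pass (adjusted p = 0.082, edgeR's quasi-likelihood test).

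Among the regulators of KCs, Nr1h3, which encodes LXRα, had 508 to 797 CPM (median 587) in Tim4- KCs and 132, 140.1, 132, 133 and 153 CPM in CD11b+ AMs. The groups did not overlap, and the CD11b+ AM samples were all above the CRE- AMs (64.2 to 85.5 CPM). CRE- KCs had 776 to 1005 CPM, with a mean of 863 CPM against 637 CPM in Tim4- KCs. The log2 fold change was 2.20 (SE 0.11) against 3.56 in CRE- macs (interaction -1.36, adjusted p = 2.81e-07, edgeR's quasi-likelihood test). Of 19 tested genes of LXR and its targets, 8 were higher in Tim4- KCs and 3 in CD11b+ AMs. Over all genes tested the shares were 19.9% and 14.5%. The kept KC-side members included Abca1 (log2 fold change 1.48), a cholesterol exporter, and Apoe, Apoc1, Apoc2 and Pltp of lipoprotein handling. Scd1, the stearoyl-CoA desaturase, turned: it had 73.1 to 145 CPM (median 91.0) in Tim4- KCs and 442, 274, 241, 273 and 285 CPM in CD11b+ AMs, but 99.2 to 169 CPM in CRE- KCs and 2.69 to 5.80 CPM in CRE- AMs. The CD11b+ AM samples were all above the other groups, and the log2 fold change went from 4.92 to -1.59.

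Id3, a repressor of the helix-loop-helix family that KCs depend on, was kept at 778 to 1009.9 CPM (median 876) in Tim4- KCs and 45.9, 42.8, 55.8, 42.7 and 87.6 CPM in CD11b+ AMs. Its relatives behaved otherwise. Id1 was new on the AM side, with 77.2 to 97.8 CPM (median 88.5) in Tim4- KCs and 183, 205, 187, 194 and 239 CPM in CD11b+ AMs. The CD11b+ AM samples were all higher, with a difference of -1.19 on the log2 scale (SE 0.12, adjusted p = 4.41e-09, edgeR's quasi-likelihood test), and this call was lost when libraries were scaled by their totals alone. Id2 turned, with 379 to 546 CPM (median 457) in Tim4- KCs, 1130.4, 1033, 949, 917 and 1203 CPM in CD11b+ AMs, 172 to 211 CPM in CRE- KCs and 69.3 to 108 CPM in CRE- AMs; its log2 fold change went from 1.13 to -1.21. Spic, an ETS factor of iron-recycling macs, was kept (log2 fold change 7.49), and so was Irf7, an interferon regulatory factor, which narrowed from 7.27 to 5.20.

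**Figure D2:**
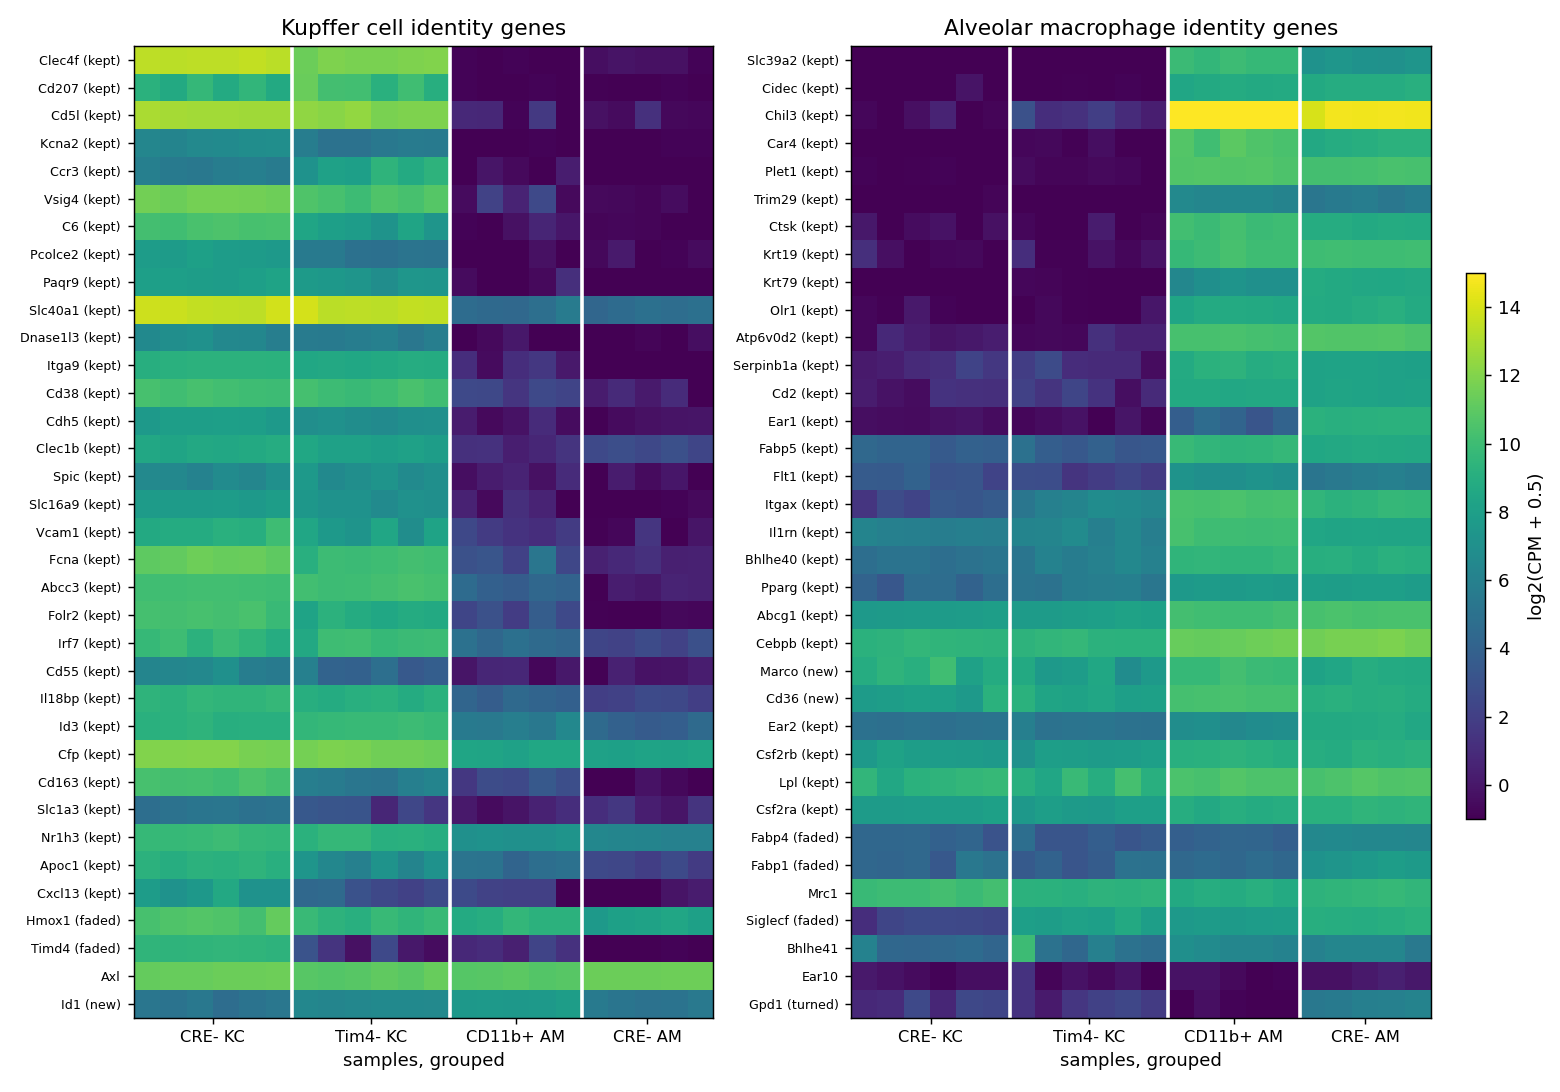
Levels of the 35 KC identity genes (left) and 35 AM identity genes (right) in every sample, as log2(CPM + 0.5) on a colour scale, with the class of each gene in brackets and samples grouped along the x axis as CRE- KC, Tim4- KC, CD11b+ AM and CRE- AM. The kept genes change colour between the Tim4- KC and the CD11b+ AM columns, whereas Timd4, Hmox1, Siglecf, Fabp1 and Fabp4 have similar colours in both.

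The AM program also remained, with fewer narrowed members. Of 35 genes listed for AM identity, all tested, 28 were higher in CD11b+ AMs and 1, Gpd1, was higher in Tim4- KCs, with a median log2 fold change of -3.84 in altered macs and -4.17 in CRE- macs. Among the 26 kept genes, 6 had narrowed and 4 had widened. Siglecf, Fabp1 and Fabp4 faded, and Cd36 and Marco were new. For the remaining members, Ear10, Bhlhe41 and Mrc1, no class was reached.

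Slc39a2, which encodes a zinc importer, had 948, 765, 1003, 859 and 851 CPM in CD11b+ AMs and no count in any Tim4- KC library. The difference was at least 5380-fold against the floor of 3 counts per library. No CRE- KC library held a count either, and CRE- AMs had 137 to 171 CPM, so every CD11b+ AM sample was above every CRE- AM sample. Cxcr1, an interleukin-8 type chemokine receptor known from neutrophils, had 174, 147, 160.0, 159 and 169 CPM in CD11b+ AMs and no count in Tim4- KCs, at least 983-fold higher. In CRE- AMs it had 4.28 to 6.61 CPM and in CRE- KCs no count. The interaction was called for neither Slc39a2 nor Cxcr1. With no count in either KC group it can hardly pass, so the class kept does not mean an unchanged AM level.

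Cidec, a lipid droplet protein, had 354, 419, 455, 419 and 442 CPM in CD11b+ AMs and 0 to 0.0490 CPM in Tim4- KCs, where it was counted 2 times in all. The ratio was 25100 (95% exact interval 6960 to 208000), and CRE- AMs had a like level of 413 to 549 CPM. Chil3, a chitinase-like lectin abundant in AMs, had 41269, 36773, 37605, 44429 and 51368 CPM in CD11b+ AMs and 0.769 to 7.26 CPM (median 1.76) in Tim4- KCs. The groups were far apart, with a difference of -14.09 on the log2 scale (SE 0.48, adjusted p = 1.53e-17, edgeR's quasi-likelihood test) and an interaction of 2.52 towards KCs. The AM level did not fall: CRE- AMs had 16440 to 26796 CPM, all below the CD11b+ AMs. The move towards KCs came from low KC counts, 30 in all in CRE- KCs and 270 in Tim4- KCs. Near-identical family members may share reads with Chil3, which makes its values uncertain.

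Car4, an AM carbonic anhydrase, had 1702, 1098, 2019, 1573 and 1384 CPM in CD11b+ AMs and 0 to 0.267 CPM in Tim4- KCs, and every CD11b+ AM sample was above every CRE- AM sample (395 to 632 CPM). Among the regulators, Pparg had 198, 218, 209.9, 227 and 214 CPM in CD11b+ AMs and 32.4 to 59.5 CPM (median 45.2) in Tim4- KCs. The groups did not overlap, and the Tim4- KCs were above the CRE- KCs (9.44 to 27.4 CPM), so the log2 fold change narrowed from -3.61 to -2.22 (interaction 1.39, adjusted p = 4.19e-04, edgeR's quasi-likelihood test). Cebpb and Bhlhe40, transcription factors of AMs, were kept with log2 fold changes of -2.00 and -3.56. Bhlhe41 was not called (log2 fold change 1.07, adjusted p = 0.234, edgeR's quasi-likelihood test), with 19.8 to 992 CPM (median 31.7) in Tim4- KCs, of which only replicate 1 was above the CD11b+ AMs (69.3 to 125 CPM).

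Of 23 tested genes of PPARγ and of lipid uptake and storage, 16 were higher in CD11b+ AMs and 1 in Tim4- KCs, and 15 of the 16 were kept. Among these were Lpl, Plin2, Olr1, Fabp5, Dgat1 and Dgat2, which serve lipid uptake and droplet formation. Lpl, with means of 1460 CPM in CD11b+ AMs and 690 CPM in Tim4- KCs, was close to the threshold of 1 log2 unit. Its call may therefore depend on the scaling. Plin1, a lipid droplet coat protein, was kept by the calls alone, with 0 to 0.570 CPM in CD11b+ AMs and 0 to 0.398 CPM in Tim4- KCs, which overlapped near the floor, against 1.501 to 5.52 CPM in CRE- AMs. The fatty acid binding proteins Fabp1 and Fabp4 faded instead. Fabp4 had 13.7, 16.5, 19.2, 18.1 and 13.7 CPM in CD11b+ AMs and 8.71 to 26.8 CPM (median 10.2) in Tim4- KCs. The groups overlapped, while CRE- AMs had 80.7 to 95.8 CPM; the interaction was 2.01 (adjusted p = 9.65e-05, edgeR's quasi-likelihood test). Gpd1, glycerol-3-phosphate dehydrogenase, turned to KCs at low level, with 0.628 to 4.70 CPM in Tim4- KCs and 0 to 0.302 CPM in CD11b+ AMs, against 41.4 to 70.7 CPM in CRE- AMs. Cd36, a fatty acid translocase and scavenger receptor, was new on the AM side, with 1223, 1314, 1360.4, 1230.0 and 1232 CPM in CD11b+ AMs and 264 to 583 CPM (median 314) in Tim4- KCs (log2 fold change -1.86, against -0.77 in CRE- macs). Its interaction was close to the threshold of 1 log2 unit. Scaling by library totals alone moved the median interaction by 0.176, so the class of Cd36 may depend on the scaling.

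The differences that faded on the KC side were led by Timd4, which encodes the phosphatidylserine receptor Tim4 used in the sort. It had 0.226 to 8.16 CPM (median 1.36) in Tim4- KCs and 1.27, 1.51, 0.829, 4.46 and 1.96 CPM in CD11b+ AMs, and the groups overlapped. CRE- KCs had 656 to 749 CPM, and CRE- AMs held 1 count in all, a ratio of 74100 (95% exact interval 13300 to 2930000). The interaction was -15.22 (SE 1.23, adjusted p = 1.24e-09, edgeR's quasi-likelihood test), and -16.53 without the CRE- AM sample of replicate 4. The gate sets the level of this gene in Tim4- KCs, so its fading restates the sort.

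Cd209f, a DC-SIGN related lectin, had 0.644 to 27.6 CPM (median 5.20) in Tim4- KCs, 3.87, 3.68, 1.09, 6.71 and 4.21 CPM in CD11b+ AMs and 40.8 to 74.3 CPM in CRE- KCs. The altered groups overlapped, and CRE- AMs had 0 to 0.142 CPM. Its interaction was -8.58, and -9.33 without the Tim4- KC sample of replicate 4, the highest of its group. Mmp9, a gelatinase, had 2.59 to 79.6 CPM (median 18.8) in Tim4- KCs, 16.4, 10.8, 8.23, 20.3 and 17.2 CPM in CD11b+ AMs, 13.03 to 55.1 CPM in CRE- KCs and 0 to 0.284 CPM in CRE- AMs. The altered groups overlapped again. The interaction of -8.09 (SE 1.26) went to -10.09 without the CRE- AM sample of replicate 4 and to -8.68 without the Tim4- KC sample of replicate 5, the highest of its group, and it passed in each case. For 1810011O10Rik the interaction was -6.50 (SE 0.49), with 6.66 to 15.4 CPM (median 8.89) in Tim4- KCs and 21.1, 22.1, 11.3, 20.8 and 17.98 CPM in CD11b+ AMs.

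Itgam, which encodes the CD11b chain of complement receptor 3 and is a sort marker of the AM group, faded as well. It had 129 to 290.1 CPM (median 197) in Tim4- KCs and 266, 232, 278, 259 and 273 CPM in CD11b+ AMs, against 61.9 to 96.0 CPM in CRE- KCs and 0.387 to 3.37 CPM in CRE- AMs. Both altered groups were above all CRE- samples, with an interaction of -5.79 (SE 0.34). The CD11b gate selects for this gene in the AM group, and CRE- AMs were not split by it, so its fading restates the sort in part. Zeb1, the relative of Zeb2, had 6.67 to 15.1 CPM (median 11.2) in Tim4- KCs and 13.2, 14.4, 16.6, 15.7 and 14.8 CPM in CD11b+ AMs. In CRE- macs it had 9.28 to 19.95 CPM in KCs and 1.23 to 5.50 CPM in AMs, and the difference of 1.93 faded to -0.42 (interaction -2.35, adjusted p = 5.47e-05, edgeR's quasi-likelihood test). The faded KC-side members of the other lists were the chemokines Ccl8, Ccl12 and Cxcl16, the lectins Mgl2 and Cd209g, the receptors and growth factor Il3ra, Il13ra1 and Csf1, the survival gene Bcl2 and the acute-phase genes Saa3 and Wfdc17.

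On the AM side, Siglecf, which encodes the sialic acid-binding lectin that defines AMs in the gate, faded with nearly equal levels in both altered groups. It had 244 to 415 CPM (median 262) in Tim4- KCs and 194, 219.8, 213, 225 and 239 CPM in CD11b+ AMs. Every Tim4- KC sample was above every CD11b+ AM sample, but the log2 fold change of 0.40 (SE 0.16, adjusted p = 0.0417, edgeR's quasi-likelihood test) stayed under the threshold of 1. CRE- KCs had 1.60 to 5.66 CPM and CRE- AMs 474 to 595 CPM, so the interaction was 7.27 (SE 0.27).

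Hr, which encodes the hairless corepressor, was at or near the floor in both altered groups, with 0 to 1.39 CPM in Tim4- KCs and 0, 0.655, 0.0518, 0.262 and 0 CPM in CD11b+ AMs. CRE- AMs had 35.3 to 51.6 CPM. The interaction was 9.69 (SE 1.46, adjusted p = 1.78e-05, edgeR's quasi-likelihood test) and ranged from 8.83 without the Tim4- KC sample of replicate 2 to 12.01 without the CRE- KC sample of replicate 4, with 8.96 without Tim4- KC replicate 1 and 10.93 without CD11b+ AM replicate 2. Igflr1, a receptor that resembles TNF receptors, had 0.226 to 1.76 CPM (median 0.542) in Tim4- KCs and 0.363, 1.46, 0.621, 0.734 and 1.498 CPM in CD11b+ AMs, against 64.7 to 110.2 CPM in CRE- AMs. The altered groups overlapped at low levels, and the interaction was 6.41 (7.47 without the KC samples with Y-linked counts). Trerf1, a zinc finger transcription regulator, had 4.38 to 17.5 CPM (median 9.10) in Tim4- KCs, 5.02, 7.41, 8.03, 5.66 and 4.15 CPM in CD11b+ AMs and 38.3 to 53.3 CPM in CRE- AMs, with an interaction of 5.32 (SE 0.56).

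**Figure D3:**
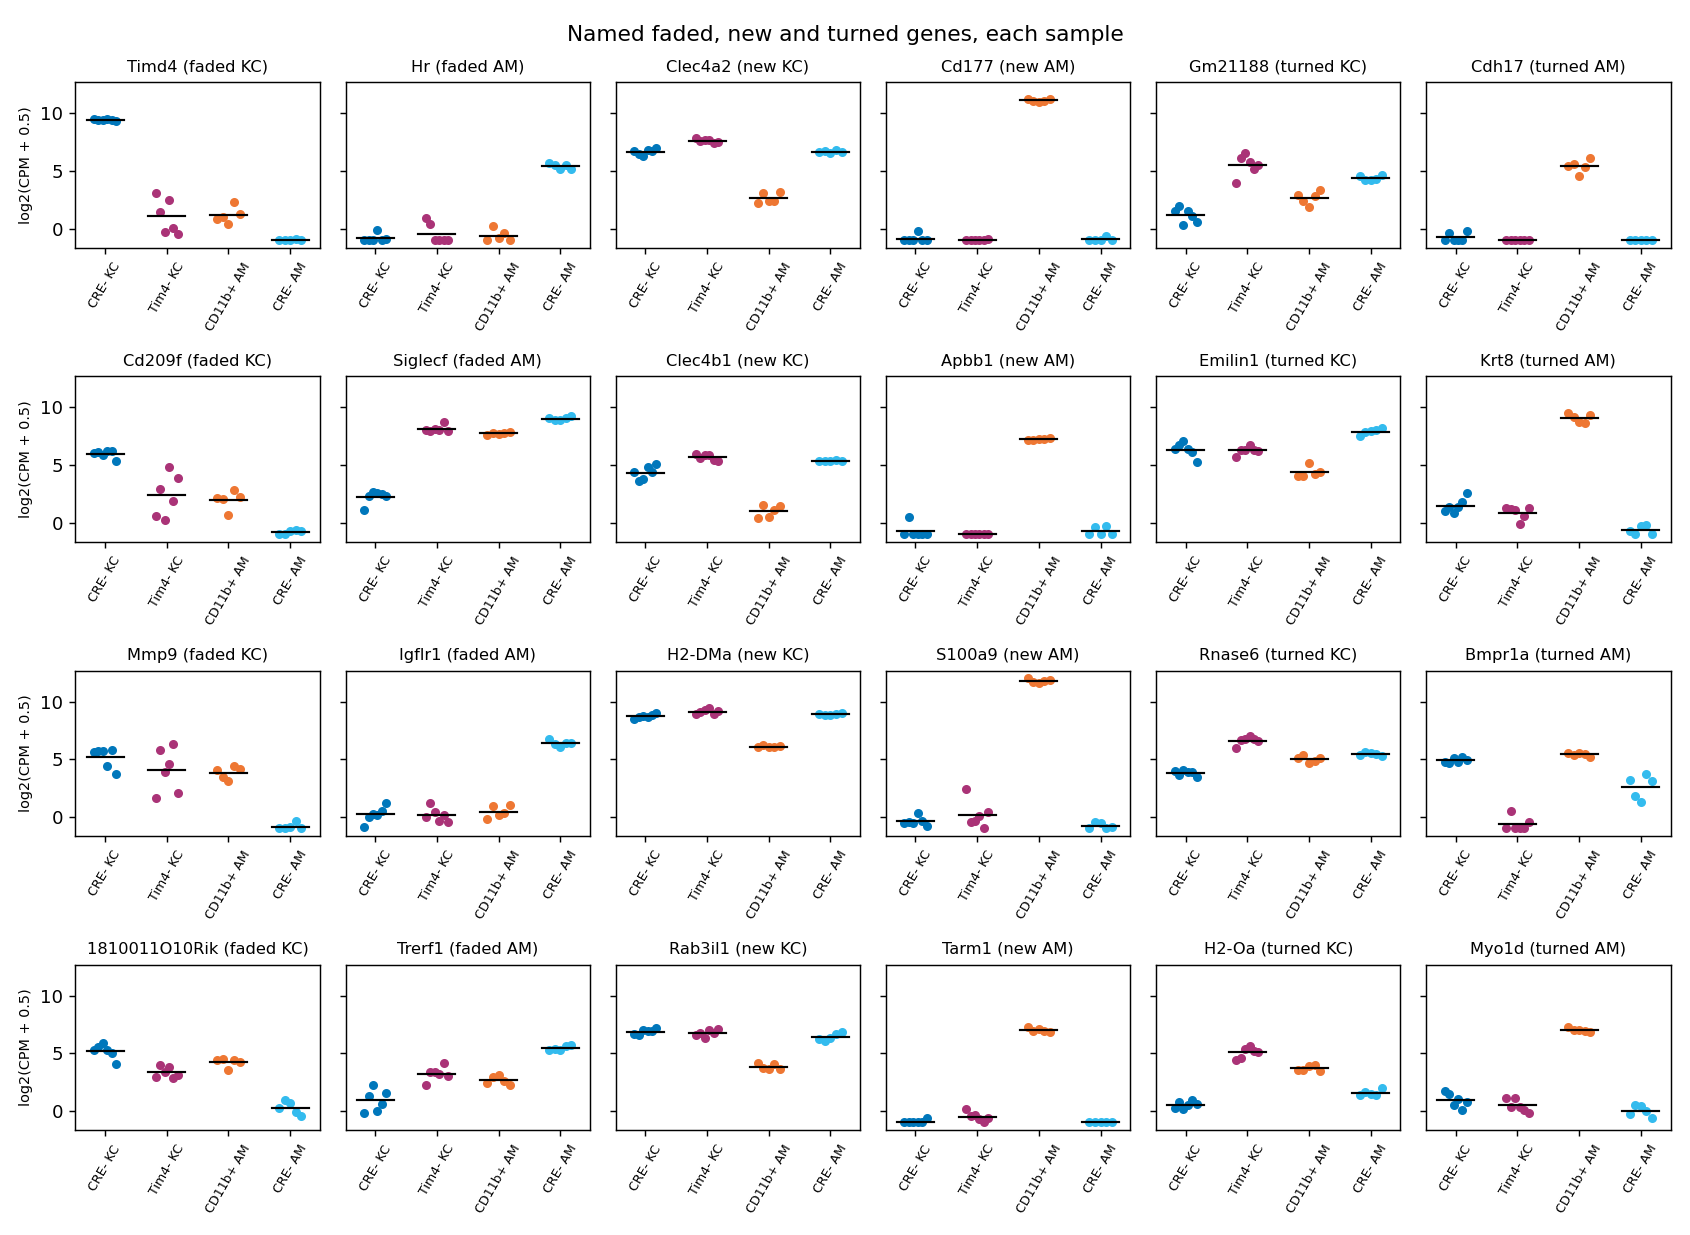
Level of the 24 named faded, new and turned genes in each sample as log2(CPM + 0.5), with 1 point per sample, a bar at the group mean, and the 4 groups along each x axis. In the faded panels the middle groups, Tim4- KC and CD11b+ AM, overlap except for Siglecf, in the new and turned panels to the AM side CD11b+ AMs lie above the other groups except for Bmpr1a, where they overlap CRE- KCs, and in the new panels to the KC side CD11b+ AMs lie below the other groups.

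The new differences on the KC side were mostly genes with low levels in CD11b+ AMs: the AM mean was lower in CD11b+ than in CRE- AMs for 171 of 179, and it had moved further than the KC mean for 144 (80.4%). Clec4a2, an inhibitory C-type lectin receptor of myeloid cells, had 176 to 236 CPM (median 199.6) in Tim4- KCs and 4.23, 7.86, 4.82, 4.72 and 8.47 CPM in CD11b+ AMs. The groups were far apart, whereas CRE- KCs (76.1 to 130.1 CPM) and CRE- AMs (94.7 to 112 CPM) overlapped. On the log2 scale the difference was 5.05 (SE 0.18, adjusted p = 2.98e-17, edgeR's quasi-likelihood test) against 0.03 in CRE- macs. Its neighbour in the same gene cluster, Clec4b1, had 41.3 to 60.6 CPM (median 54.2) in Tim4- KCs and 0.786, 2.32, 0.932, 1.68 and 2.25 CPM in CD11b+ AMs, with 39.6 to 42.5 CPM in CRE- AMs. Clec4a3, of the same cluster, had 295 to 501 CPM (median 356) in Tim4- KCs and 55.9, 57.6, 44.6, 45.6 and 56.2 CPM in CD11b+ AMs (log2 fold change 2.86, against 0.20). Reads of these paralogs may be split by counting. Of 27 tested C-type lectins, 13 were higher in Tim4- KCs and 4 in CD11b+ AMs, with 4 new on the KC side. By comparison, 19.9% and 14.5% of all genes tested were higher in these groups.

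H2-DMa, the α chain of the chaperone that loads peptides on MHC class II, had 479 to 699.6 CPM (median 568) in Tim4- KCs and 65.6, 73.6, 66.5, 66.1 and 68.3 CPM in CD11b+ AMs. No CD11b+ AM sample reached any other group: CRE- KCs had 355 to 512 CPM and CRE- AMs 445 to 530.5 CPM. The log2 fold change was 3.07 (SE 0.11) against -0.17, with an interaction of 3.23 (adjusted p = 3.71e-14, edgeR's quasi-likelihood test). Of 12 tested genes of MHC class II presentation, 10 were higher in Tim4- KCs and none in CD11b+ AMs, with a median log2 fold change of 3.87 against 2.61 in CRE- macs. Of the 10, 7 were kept, H2-DMa and H2-DMb2 were new and H2-Oa had turned.

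The classical class II chains were kept without a called change: H2-Aa had 3365 to 5003 CPM (median 3629) in Tim4- KCs and 53.8, 32.6, 31.8, 58.2 and 59.6 CPM in CD11b+ AMs, and its log2 fold change was 6.33 in altered and 6.18 in CRE- macs. Both altered groups lay above their CRE- counterparts on average, with means of 1749.6 ± 647 CPM (SD, n = 6) in CRE- KCs and 24.1 ± 12.4 CPM (SD, n = 5) in CRE- AMs. Ciita, the master regulator of class II genes, had 42.3 to 95.9 CPM (median 59.9) in Tim4- KCs and 0, 1.97, 2.49, 2.46 and 1.498 CPM in CD11b+ AMs, and the difference widened from 3.63 to 5.24 (interaction adjusted p = 0.0404, edgeR's quasi-likelihood test). Rab3il1, a guanine nucleotide exchange factor for Rab proteins, completed the named genes, with 82.3 to 134 CPM (median 109) in Tim4- KCs and 17.6, 12.8, 11.8, 15.8 and 11.6 CPM in CD11b+ AMs (log2 fold change 2.99, SE 0.17).

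Ccr2, the receptor that guides monocytes to tissues, was new on the KC side, with 57.6 to 155 CPM (median 115) in Tim4- KCs and 42.9, 40.4, 17.9, 32.5 and 32.3 CPM in CD11b+ AMs. Both altered groups lay above all CRE- samples (2.25 to 7.28 CPM in KCs and 2.62 to 7.02 CPM in AMs), and the log2 fold change was 1.78 (SE 0.30, adjusted p = 1.49e-05, edgeR's quasi-likelihood test). Cx3cr1, the fractalkine receptor, was kept on the KC side at 54.2 to 347 CPM (median 88.9) in Tim4- KCs and 5.07 to 13.4 CPM in CD11b+ AMs, with 2.53 to 8.55 CPM in CRE- KCs. In bulk samples a different share of cells and a different amount of RNA per cell cannot be told apart, and whether recently arrived cells account for these values was not tested.

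The new differences on the AM side included genes that were almost without counts in CRE- macs. Cd177, which encodes a GPI-anchored surface protein known from neutrophils and lies at chr7:24743983-24760311, minus strand (GRCm38), had 2442, 2113, 2011, 2203 and 2506 CPM in CD11b+ AMs. In Tim4- KCs it was counted 1 time in all, and no CRE- sample of either tissue was above 0.361 CPM. The ratio of CD11b+ AMs over Tim4- KCs was 269000 (95% exact interval 48300 to 10600000); the fitted log2 fold change was -17.25 (adjusted p = 7.05e-21, edgeR's quasi-likelihood test), and -18.46 without the Tim4- KC sample of replicate 6, which held the count. Apbb1, an adaptor protein that binds the amyloid precursor, had 147, 146, 156, 153 and 165 CPM in CD11b+ AMs and no count in Tim4- KCs, at least 932-fold higher. CRE- samples had at most 0.91 CPM.

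S100a9, a calcium-binding alarmin subunit, had 4219.9, 3418, 3179, 3563 and 3818 CPM in CD11b+ AMs and 0 to 4.97 CPM (median 0.408) in Tim4- KCs. The groups were far apart, and CRE- AMs had 0 to 0.242 CPM. The log2 fold change was -12.13 (SE 0.51), and -13.26 without the Tim4- KC sample of replicate 1, the highest of its group. Its partner S100a8 had 5194, 4320.5, 4042, 4168 and 4331 CPM in CD11b+ AMs, 0 to 1.23 CPM in Tim4- KCs and 2.77 to 6.02 CPM in CRE- AMs, a kept difference that widened by an interaction of -9.48. Tarm1, an activating receptor that pairs with the Fc receptor γ chain, had 152, 125, 135, 122 and 114 CPM in CD11b+ AMs and 0 to 0.597 CPM (median 0.193) in Tim4- KCs (log2 fold change -9.28, SE 0.35). Lcn2, the siderophore-binding lipocalin, was new with 121, 118, 177, 145 and 112 CPM in CD11b+ AMs and 0 to 1.07 CPM in Tim4- KCs.

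Several of these genes are best known from neutrophils, so the neutrophil list is given beside them. Of 15 listed markers, 14 were in the files and 9 were tested; 8 were higher in CD11b+ AMs, and their summed level was 8280 to 10671 CPM there, 112 to 188 CPM in Tim4- KCs, 86.1 to 130 CPM in CRE- KCs and 90.6 to 116 CPM in CRE- AMs. The largest parts of the sum in CD11b+ AMs were S100a8 and S100a9. Low members included Elane and Mpo, without a count in any CD11b+ AM library, and Camp at 0 to 3.46 CPM. Ngp had 0 to 13.7 CPM and Ltf 11.3 to 24.2 CPM. These low members do not stand for the list as a whole. Cxcr2, a chemokine receptor related to Cxcr1, had 574, 548, 495, 638 and 592 CPM in CD11b+ AMs and 0.796 to 2.03 CPM in Tim4- KCs. The part of other cells in these values was not tested. Among 18 tested S100 and granule-associated genes, 14 were higher in CD11b+ AMs and 1, Pglyrp1, in Tim4- KCs.

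Epithelial genes repressed by ZEB factors were a block of the AM side. Of 31 listed genes, 24 were tested: 18 were higher in CD11b+ AMs and 1 (Grhl1) in Tim4- KCs, with a median log2 fold change of -3.58, against -1.22 in CRE- macs (-0.52 with genes without a count in 1 group set at their bound). Of the 18, 10 were kept, Esrp2, Jup, Spint2 and St14 were new, and Crb3, Krt8 and Krt18 had turned. ZEB proteins bind paired E-box motifs with the core CACCTG, whose reverse complement is CAGGTG. Promoter windows from RefSeq (GRCm38.p6, 250 bases before to 50 after the start site) were found for 19 of the 31 genes, and 13 of the 19 held at least 1 match on either strand. By comparison, 20.2% of all 32851 windows and 17.8% of those of tested genes held one; over the classes the share was 24.3% for new differences on the AM side, 23.1% for those turned to AMs, 22.9% for kept AM-side, 20.6% for new KC-side, 18.7% for faded KC-side, 18.3% for kept KC-side, 16.7% for faded AM-side and 12.5% for those turned to KCs. The list was counted by gene, some with more than 1 window, and the comparison by window, so these shares are not like measures. Since the list names genes known as ZEB targets, its motif count is no independent evidence, and a match is a description of letters, not a site. The windows of 4 list members described next are shown 5′ to 3′, in lower case with the motif in capitals. They were chosen among windows that hold a match. Other windows of the list, such as that of Spint1, hold none, and binding was not tested.
Epcam (chr17:87635729-87636028, plus strand): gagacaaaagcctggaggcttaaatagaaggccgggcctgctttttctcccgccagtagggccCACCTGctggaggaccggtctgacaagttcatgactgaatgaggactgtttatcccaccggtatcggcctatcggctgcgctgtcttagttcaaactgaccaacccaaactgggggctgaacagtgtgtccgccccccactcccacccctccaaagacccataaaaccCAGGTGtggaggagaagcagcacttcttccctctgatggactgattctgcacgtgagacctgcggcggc
Krt8 (chr15:102004293-102004592, minus strand): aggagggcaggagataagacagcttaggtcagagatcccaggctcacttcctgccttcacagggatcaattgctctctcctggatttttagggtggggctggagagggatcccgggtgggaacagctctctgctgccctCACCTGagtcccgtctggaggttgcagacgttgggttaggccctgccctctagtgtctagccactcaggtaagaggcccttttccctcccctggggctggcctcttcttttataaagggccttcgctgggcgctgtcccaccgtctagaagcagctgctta
Krt18 (chr15:102027966-102028265, plus strand): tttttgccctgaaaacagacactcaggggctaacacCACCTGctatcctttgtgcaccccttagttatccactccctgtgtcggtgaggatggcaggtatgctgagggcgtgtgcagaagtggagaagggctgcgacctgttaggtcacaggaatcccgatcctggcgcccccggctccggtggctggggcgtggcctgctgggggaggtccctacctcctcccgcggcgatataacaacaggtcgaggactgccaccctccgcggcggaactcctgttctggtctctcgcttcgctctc
Crb3 (chr17:57061951-57062250, plus strand): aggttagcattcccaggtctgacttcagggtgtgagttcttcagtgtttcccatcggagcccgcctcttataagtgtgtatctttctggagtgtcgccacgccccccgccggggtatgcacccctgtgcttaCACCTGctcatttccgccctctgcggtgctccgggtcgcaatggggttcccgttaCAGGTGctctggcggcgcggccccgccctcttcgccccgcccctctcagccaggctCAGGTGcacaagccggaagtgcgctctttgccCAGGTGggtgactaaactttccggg

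Epcam, the epithelial cell adhesion molecule, whose window holds 2 matches, had 495, 539, 503, 475 and 522 CPM in CD11b+ AMs and 0 to 0.856 CPM (median 0) in Tim4- KCs. The groups were far apart, and all CD11b+ AM samples were above the CRE- AMs (11.2 to 20.8 CPM). On the log2 scale the difference was -11.44 (SE 0.38, adjusted p = 1.17e-17, edgeR's quasi-likelihood test) against -10.14 in CRE- macs. Cdh1, which encodes E-cadherin, had 325, 389.6, 306, 366 and 314 CPM in CD11b+ AMs, 1.47 to 6.07 CPM (median 2.71) in Tim4- KCs and 73.5 to 112 CPM in CRE- AMs. Its log2 fold change was -6.73 in altered and -7.48 in CRE- macs, with no called interaction. Spint1, an inhibitor of membrane serine proteases, narrowed instead, since the Tim4- KCs at 8.36 to 61.6 CPM (median 44.5) were above all CRE- KCs (0 to 0.606 CPM); CD11b+ AMs had 327, 349, 340.1, 349.5 and 349 CPM. Its log2 fold change went from -8.75 to -2.99.

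Krt8, a keratin of simple epithelia with 1 match in its window, turned to the AM side from low levels. It had 749, 567, 431, 393 and 641 CPM in CD11b+ AMs, 0.428 to 1.99 CPM (median 1.66) in Tim4- KCs, 1.27 to 5.36 CPM in CRE- KCs and 0 to 0.379 CPM in CRE- AMs. Every CD11b+ AM sample was far above all others, with a difference of -8.61 on the log2 scale (SE 0.36, adjusted p = 7.92e-16, edgeR's quasi-likelihood test). Krt18, its filament partner, also with 1 match, had 65.1, 51.9, 34.5, 33.7 and 74.3 CPM in CD11b+ AMs and 1.09 to 4.08 CPM in Tim4- KCs. Crb3, an apical polarity protein whose window holds 4 matches, had 11.6, 10.03, 7.87, 9.91 and 9.10 CPM in CD11b+ AMs and 0.0904 to 1.89 CPM in Tim4- KCs. In CRE- macs, Krt18 had 0.809 to 2.999 CPM in KCs and 0 to 1.15 CPM in AMs, and Crb3 0.0433 to 0.515 CPM and 0 to 0.0456 CPM. Among the new genes, St14, the membrane protease matriptase, had 70.3, 62.8, 77.5, 88.4 and 60.6 CPM in CD11b+ AMs and 2.09 to 12.2 CPM (median 7.02) in Tim4- KCs, and Spint2, its inhibitor, 212, 181, 175, 181 and 188 CPM and 17.8 to 62.9 CPM (median 44.1). For both, CRE- levels were lower in each tissue, with at most 1.47 CPM for St14 and 13.7 CPM for Spint2.

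Of the 79 genes that turned to AMs, 33 had a mean of at least 5 CPM in a CRE- group, as C2, Scd1 and Id2 did, and the others were below it in both. Cdh17, an intestinal cadherin, had 43.7, 49.3, 23.7, 40.3 and 71.0 CPM in CD11b+ AMs and no count in Tim4- KCs, at least 277-fold higher. No CRE- AM library held a count and CRE- KCs had 0 to 0.383 CPM, so its direction in CRE- macs rests on few reads. Myo1d, an unconventional myosin, had 151, 133, 130.5, 123 and 115 CPM in CD11b+ AMs and 0.407 to 1.73 CPM (median 0.751) in Tim4- KCs, with 0.541 to 2.72 CPM in CRE- KCs and 0.151 to 0.918 CPM in CRE- AMs. Bmpr1a, a receptor for bone morphogenetic proteins, did not overlap with the CRE- group of the same tissue in either KCs or AMs. It had 44.9, 40.7, 46.8, 43.8 and 35.9 CPM in CD11b+ AMs, 0 to 0.921 CPM in Tim4- KCs, 24.6 to 36.4 CPM in CRE- KCs and 1.96 to 12.7 CPM in CRE- AMs. In Tim4- KCs 4 of 6 libraries held no count, and the CD11b+ AMs overlapped the CRE- KCs. The log2 fold change went from 2.12 to -7.55 (SE 0.58, adjusted p = 5.70e-11, edgeR's quasi-likelihood test), and to -9.48 without the Tim4- KC sample of replicate 2, the highest of its group.

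Among the 20 genes that turned to KCs, 4 met the rule for naming. Gm21188, a predicted gene, had 15.3 to 91.9 CPM (median 49.9) in Tim4- KCs and 7.14, 4.84, 3.11, 6.45 and 9.39 CPM in CD11b+ AMs. The groups did not overlap, and in CRE- macs the order was opposite, with 0.769 to 3.38 CPM in KCs and 17.96 to 24.1 CPM in AMs. Emilin1, an extracellular matrix glycoprotein, had 52.2 to 105 CPM (median 77.8) in Tim4- KCs, 16.4, 16.4, 36.1, 18.2 and 21.0 CPM in CD11b+ AMs and 184 to 289 CPM in CRE- AMs, and its log2 fold change went from -1.51 to 1.85 (SE 0.25). Rnase6, an antimicrobial ribonuclease, had 62.7 to 127 CPM (median 102) in Tim4- KCs and 34.0, 41.5, 24.9, 28.5 and 34.8 CPM in CD11b+ AMs. All Tim4- KCs were above all CRE- KCs (10.5 to 16.1 CPM). H2-Oa, a chain of the modulator of H2-DM, had 21.5 to 48.7 CPM (median 36.1) in Tim4- KCs and 10.9, 11.4, 14.6, 15.6 and 10.3 CPM in CD11b+ AMs, both above the CRE- groups, which had 0.633 to 1.38 CPM in KCs and 2.04 to 3.43 CPM in AMs.

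Signals and receptors were divided between the tissues. Of 22 tested chemokines, 11 were higher in CD11b+ AMs and 7 in Tim4- KCs, and 11 moved towards AMs against 1 towards KCs, with a median log2 fold change of -1.25 in altered and 0.24 in CRE- macs. Ccl6 had 21474, 17051, 17765, 18953 and 17085 CPM in CD11b+ AMs and 611 to 872 CPM (median 775) in Tim4- KCs. The difference widened from -2.07 to -4.60. Ccl24, an eosinophil attractant, was kept on the KC side at 216 to 406 CPM (median 372) in Tim4- KCs against 1.15, 1.71, 0.880, 7.60 and 1.09 CPM in CD11b+ AMs, in which replicate 4 was the highest. Ccl2 and Ccl7, which attract monocytes, were new on the AM side, Ccl2 with 116, 86.2, 64.4, 132 and 59.5 CPM in CD11b+ AMs and 21.5 to 58.2 CPM (median 31.5) in Tim4- KCs (log2 fold change -1.25, adjusted p = 3.23e-04, edgeR's quasi-likelihood test). Of 17 chemokine receptors, 7 were higher in Tim4- KCs and 6 in CD11b+ AMs. For both lists the shares of all genes tested were 19.9% and 14.5%.

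The receptors for M-CSF and GM-CSF kept their differences. Csf1r, the receptor for M-CSF and IL-34, had 5531 to 8328 CPM (median 6823) in Tim4- KCs and 366, 294, 376, 361 and 363 CPM in CD11b+ AMs. Csf2ra, a chain of the GM-CSF receptor, had 508, 397, 530.1, 466 and 498 CPM in CD11b+ AMs and 182 to 262 CPM (median 229) in Tim4- KCs. Neither pair of groups overlapped, and neither difference had a called change. Csf2ra, with means of 480 CPM in CD11b+ AMs and 227 CPM in Tim4- KCs, was close to the threshold of 1 log2 unit. Scaling by library totals alone moved the median fold change of all genes by 0.19, so this call may depend on the scaling. Of 21 tested genes of myeloid growth factors and their receptors, 6 were higher in each tissue, and 5 KC-side and 3 AM-side differences were kept. Among all genes tested, 19.9% were higher in Tim4- KCs and 14.5% in CD11b+ AMs. On the KC side Il3ra, Csf1 and Il13ra1 faded and Notch1 was new. On the AM side Tgfbr1, a receptor for TGF-β, faded, Csf3r, the G-CSF receptor, was new, and Bmpr1a turned.

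Of 27 tested genes of efferocytosis and scavenging, 17 had no called interaction, 10 moved towards AMs and none towards KCs, against 9.15% and 5.28% of all genes tested, while 11 were higher in Tim4- KCs and 8 in CD11b+ AMs. Marco, a scavenger receptor for particles, had 829.4, 860.2, 1168, 969.6 and 876 CPM in CD11b+ AMs and 108 to 418 CPM (median 217) in Tim4- KCs, which did not overlap although the CRE- groups did. Mfge8, a bridge to phosphatidylserine, had 217, 101, 148, 186 and 156 CPM in CD11b+ AMs and 3.85 to 11.3 CPM (median 6.34) in Tim4- KCs, with a log2 fold change of -4.65 against 0.18 in CRE- macs. Colec12 was the fourth new member on the AM side. Axl and Mertk, receptor kinases of this pathway, reached no call: Axl had 1695 to 2479 CPM (median 1873) in Tim4- KCs and 1731, 1856, 1961, 1664 and 1802 CPM in CD11b+ AMs, a log2 fold change of 0.14 (SE 0.08). Of 16 genes of Toll-like receptors and their cofactors, 8 were higher in Tim4- KCs and 3 in CD11b+ AMs. All genes tested had shares of 19.9% and 14.5%.

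Of 18 tested Siglec and Ms4a genes, 8 were higher in Tim4- KCs and 6 in CD11b+ AMs. For this list and the integrins, 19.9% and 14.5% of all genes tested are the reference. Ms4a1, which encodes CD20, was higher in Tim4- KCs (105 to 178 CPM (median 143)) than in CD11b+ AMs (47.5, 68.9, 62.5, 73.1 and 79.6 CPM), and both groups were above all CRE- samples, the highest of which had 9.43 CPM; the change was not shown (interaction adjusted p = 0.491, edgeR's quasi-likelihood test). Of 26 integrins and adhesion molecules, 11 were higher in Tim4- KCs and 5 in CD11b+ AMs. Itgax, the CD11c chain of the AM gate and driver of the AM Cre, was kept at 1371, 1272, 1394, 1251 and 1297 CPM in CD11b+ AMs and 38.6 to 111 CPM (median 76.6) in Tim4- KCs, and it narrowed from -6.64 to -4.08. Of 33 transcription factors of tissue macs, 7 were higher in Tim4- KCs and 11 in CD11b+ AMs, and of 28 cell death genes 6 and 10, against 19.9% and 14.5% of all genes tested, so on the KC side both lists were near the share of all genes. The medians of these lists, -0.18 and -0.15, are smaller than the 0.19 by which the scaling moves all genes. Rbpj, the effector of Notch signals, was new on the AM side, with 149, 117, 109.5, 124 and 102 CPM in CD11b+ AMs and 24.8 to 47.1 CPM (median 26.0) in Tim4- KCs. Of 29 cell cycle genes, 3 were higher in Tim4- KCs and 3 in CD11b+ AMs, both below the share of all genes. The other 23 were not called. The KC count was 7 without the CD11b+ AM sample of replicate 3 and 6 without Tim4- KC replicate 5. It was 5 without Tim4- KC replicate 6 and 9 with scaling by library totals.

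**Figure D4:**
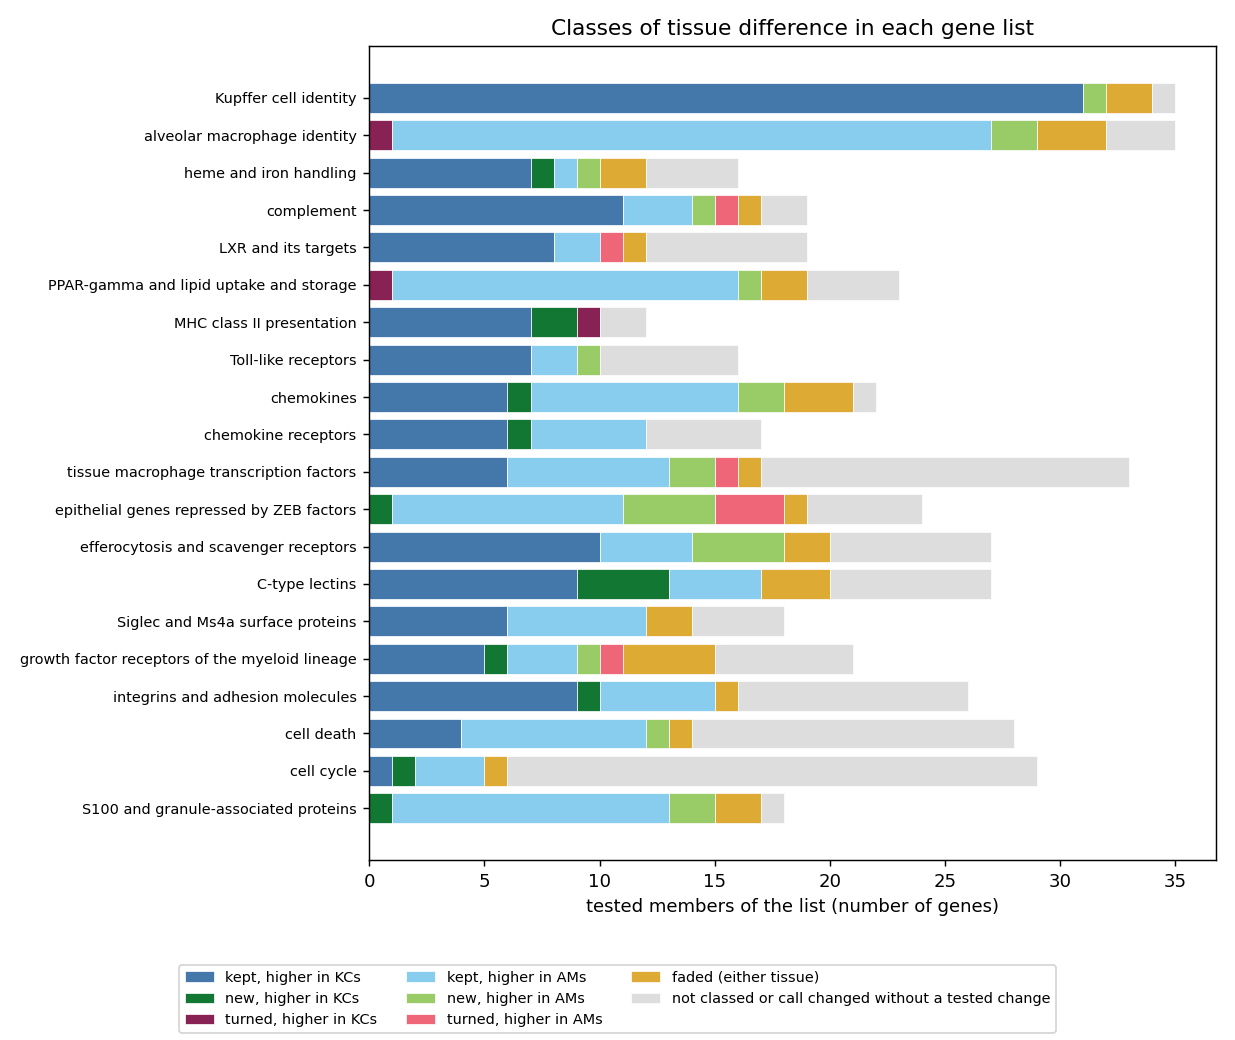
Number of tested genes (x axis) in each of the 20 gene lists (y axis), divided by class and by the tissue with the higher level in Zeb2-deleted macs, with faded genes of both tissues in yellow and genes without a class in grey. KC-side classes fill 31 of 35 KC identity genes and 10 of 12 MHC class II genes, and AM-side classes fill 17 of 24 epithelial genes and 14 of 18 S100 and granule genes.

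Markers of the neighbours of each mac differed between the groups and are given for the lists as a whole. Hepatocyte markers, 15 genes, summed to 122 to 308 CPM in Tim4- KCs and 11.6 to 24.7 CPM in CD11b+ AMs, where 10 of the 15 were at 0 in all libraries. Alb, albumin, had 42.0 to 96.8 CPM in Tim4- KCs, 73.8 to 189 CPM in CRE- KCs and no count in CD11b+ AMs. Markers of liver endothelium summed to 538 to 779 CPM in Tim4- KCs, 288 to 340 CPM in CD11b+ AMs and 780 to 2805 CPM in CRE- KCs. Lung epithelium markers summed to 119 to 153 CPM in CD11b+ AMs and 25.4 to 72.8 CPM in Tim4- KCs, where 9 of 14 were at 0, and Sftpc, a surfactant protein, had 17.3 to 30.4 CPM in CD11b+ AMs. Each of these 3 lists, like the neutrophil, dendritic cell and mac lists, differed between Tim4- KCs and CD11b+ AMs in mean log2 CPM (adjusted p = 0.00397 each, exact two-sided permutation test over 11 samples, the smallest value that the 462 splits allow being 0.00216 before adjustment over 11 lists). The B cell list differed at an adjusted p of 0.0102 by the same exact permutation test, with 51.8 to 135 CPM in Tim4- KCs and 7.87 to 16.2 CPM in CD11b+ AMs. The lists of eosinophils, monocytes, T cells and of erythrocytes and platelets did not pass in mean log2 CPM (adjusted p of 0.114, 0.0804, 0.978 and 0.49, exact permutation test). By summed CPM, the monocyte list was higher in Tim4- KCs, at 894 to 1516 CPM against 153 to 369 CPM in CD11b+ AMs, a log2 difference of 2.13 against -0.58 in mean log2 CPM (unadjusted p = 0.00216, exact permutation test). The eosinophil list, at 409 to 934 CPM against 212 to 260 CPM, differed by 1.49 by its sum (unadjusted p = 0.00433, exact permutation test) and by 0.70 in mean log2 CPM. Nearly all of its sum in Tim4- KCs came from Ccr3 (140 to 671 CPM) and Siglecf (244 to 415 CPM). Of its 8 markers, 3 were at 0 in all Tim4- KC libraries. The study reports SiglecF on Zeb2-deleted KCs. It also lists Ccr3 among genes that differ between monocyte-derived and embryonic KCs, without giving a direction. Whether eosinophils contribute to this sum was not tested. The part of other cell types in the differences above was not tested. The KC-side genes Stab2 and Clec9a and the AM-side gene Ager are also known from such cells.

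**Figure D5:**
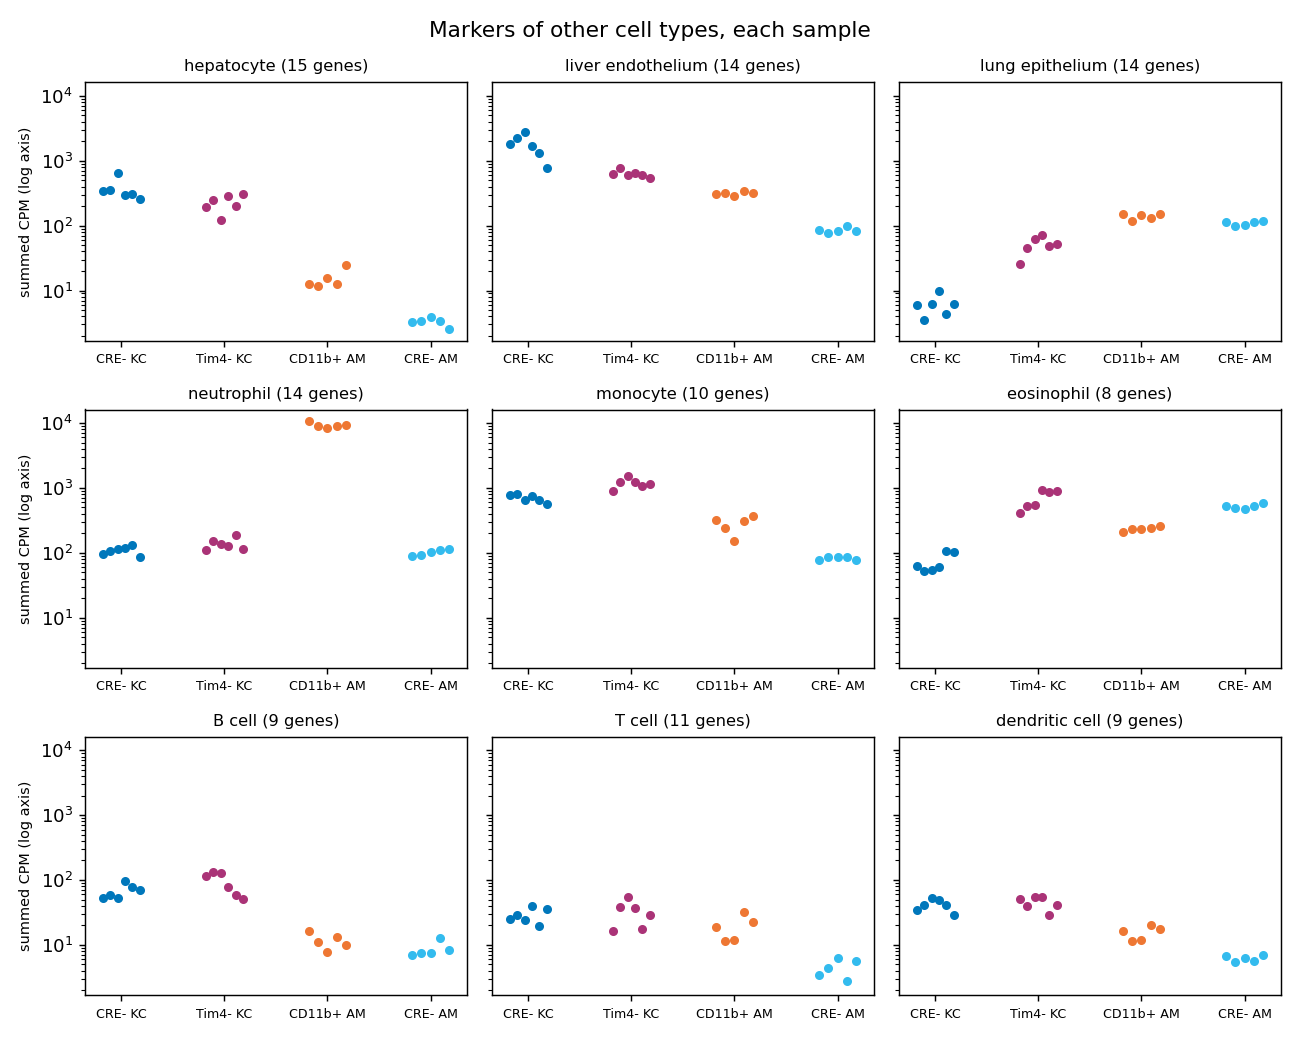
Summed CPM (log axis) of the markers of 9 other cell types in each sample, with 1 point per sample and the 4 groups on the x axis. Hepatocyte and B cell markers are higher in both KC groups, lung epithelium markers are higher in both AM groups, and the neutrophil list is high in CD11b+ AMs, at 8280 to 10671 CPM, and at most 188 CPM in the other groups.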

How the data were processed

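Bulk RNA-seq counts of sorted cells were used. The authors checked reads with FastQC 0.11.4, trimmed them with Trimmomatic 0.35, mapped them to mm10 with TopHat2 2.1.0 (SAMtools 0.1.18 was also used) and counted them per gene symbol with HTSeq-count, and they deposited raw counts without normalization. Strand use and the annotation are not given in the sources used here, so overlapping genes and close paralogs are uncertain. From these files, 5 tally rows per sample (6.03% to 9.35% of all counted rows) were left out of library sizes and tests.

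Groups were taken from the source names. Counts of 22 samples were fitted in R 4.3.3 with edgeR 4.0.16 (TMM factors of 0.881 to 1.06, its filter on low counts, quasi-likelihood test, Benjamini-Hochberg adjustment over 12943 genes); standard errors were approximated by dividing a fold change by the root of its F statistic. Log2 CPM used a prior count of 0.5. The fit was repeated with limma-voom (limma 3.58.1), the study's own method, with DESeq2 1.42.0, RLE factors, no filter, a minimum of 10 counts per sample, no threshold on the fold change, all 33 samples, the 11 altered samples alone, no KC samples with Y-linked counts, a replicate block and single replicates left out; scaling by library totals alone was chosen after seeing the data. Named genes are, for each class and side, the 4 with the largest fold change among genes whose groups do not overlap and whose mean log2 CPM is at least 5 in the higher group, sex-linked genes aside, with the sort and Cre genes, Zeb2 and members of the lists described. For genes named by this rule, non-overlap, a large fold change and a stable call follow in part from that choice. The comparison, the lists and the tests were chosen with earlier results of these data known. The fit was tested on simulated counts with known changes. Gene positions are from GENCODE M21 (GRCm38). Intervals and floors cover counting error only. The values of 1 listed gene are not reported here.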

Additional observations from a re-analysis of the deposited data

Results flagged for a closer look

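In 3 of 60 gene and group pairs tested, 1 sample stood apart from the rest of its group by Dixon's 95% criterion, which chance gives in about 1 of 20 groups. The Tim4- KC sample of replicate 1 had the lowest Clec4f level, 2666 CPM, with the others at 3474 to 4012 CPM. Replicate 5 of the Tim4- KCs had the highest Siglecf level, 415 CPM against 244 to 282 CPM. In replicate 2 Bmpr1a had 0.921 CPM, with the others at 0 to 0.226 CPM.

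The tissue difference itself differed between Zeb2-deleted and CRE- macs for 684 genes that moved towards KCs and 1184 that moved towards AMs (edgeR's quasi-likelihood test of the interaction, Benjamini-Hochberg adjusted p under 0.05 and absolute log2 value above 1). Among the named genes, the interaction, on the log2 scale, moved towards KCs by 2.52 for Chil3, 9.69 for Hr, 7.27 for Siglecf, 6.41 for Igflr1 and 5.32 for Trerf1. It moved the same way by 5.02 for Clec4a2, 5.98 for Clec4b1, 3.23 for H2-DMa, 2.55 for Rab3il1, 6.49 for Gm21188, 3.36 for Emilin1, 3.25 for Rnase6 and 2.82 for H2-Oa. Towards AMs it was -15.22 for Timd4, -8.58 for Cd209f, -8.09 for Mmp9 and -6.50 for 1810011O10Rik. For the genes with new or turned differences on the AM side it was -18.06 for Cd177, -14.99 for Apbb1, -13.60 for S100a9, -11.88 for Tarm1, -17.15 for Cdh17, -12.54 for Krt8, -9.67 for Bmpr1a and -8.54 for Myo1d; where a group held no or few counts, the size reflects edgeR's prior count.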

How the results depend on the processing

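The 14 counts of called genes and classes stayed within 1.5 times under limma-voom, DESeq2, RLE factors, no filter, all 33 samples, the KC samples without Y-linked counts and scaling by library totals, and the 2 counts that need the 11 altered samples alone did so too. Within that range, scaling by library totals still changed which side had more new differences, as given above. DESeq2 gave 11 genes no adjusted p. With at least 10 counts in every sample, which leaves fewer genes to test, 1124 genes were higher in Tim4- KCs and 1013 in CD11b+ AMs, 1139 and 903 in the CRE- comparison, and 606 moved towards AMs; 731 KC-side and 624 AM-side differences were kept, 142 faded on the KC side, 169 were new on the AM side, and 10 and 24 had turned to KCs and AMs. With no fold-change threshold, which adds small differences, 4184 and 3742 genes were called in altered macs and 3734 were higher in CRE- AMs, 1771 moved towards KCs and 1978 towards AMs, 2606 were kept and 423 faded on the AM side, 431 were new on the KC side and 423 on the AM side, and 180 and 194 had turned.

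With 1 replicate left out, the counts ranged from 2535 to 2727 (higher in Tim4- KCs), 1797 to 1880 (CD11b+ AMs), 2677 to 2872 and 1534 to 1639 (CRE- KCs and CRE- AMs), 643 to 714 and 1120 to 1212 (moved towards KCs and AMs), 1964 to 2101 and 1126 to 1193 (kept), 238 to 272 and 128 to 160 (faded), 165 to 186 and 250 to 277 (new) and 15 to 22 and 71 to 83 (turned), KC side first. All 32 named genes kept their direction and call under each of these alternatives that fitted them (1024 values); 39 of 1320 list counts moved by over 1.5 times. The summed CPM reversed the difference of the mac markers, -1.07 in place of 0.74 in mean log2 CPM, and that of the monocyte markers, 2.13 in place of -0.58.

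The labels name no shared origin of same-numbered samples, and no pair of groups had every correlation of deviations over 0.1. It was -0.0213 to -0.00765 for Tim4- KC with CD11b+ AM samples, where 0 of 5 were closest to their own number, and -0.0121 to 0.0484 for CD11b+ AM with CRE- AM, where 4 of 5 were. For CRE- KC with CRE- AM 2 of 5 were, and for Tim4- KC with CRE- KC 2 of 6, with the samples of Y-linked counts numbered 5 and 6 in both KC groups. A replicate block gave 2472 and 1891 calls and changed no count by over 1.5 times. Genes under a few CPM are limited by depth.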

Other observations

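The following members of the gene lists were chosen after their values were seen. Krt19, a keratin of AMs, had 828.8, 1016, 1285, 1068 and 1044 CPM in CD11b+ AMs and 0.0403 to 1.59 CPM in Tim4- KCs, and CRE- AMs had 1029 to 1105 CPM. The levels of the AM groups overlapped. Cldn1, which encodes a claudin of tight junctions, had 354, 345, 504, 426 and 443 CPM in CD11b+ AMs and 0 to 0.856 CPM in Tim4- KCs, with 14.7 to 31.2 CPM in CRE- AMs, and its difference widened from -5.38 to -11.15 on the log2 scale (interaction adjusted p = 2.65e-06, edgeR's quasi-likelihood test).

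Cx3cl1, the ligand of Cx3cr1, had 68.3, 73.1, 63.3, 70.9 and 65.6 CPM in CD11b+ AMs, 134 to 149 CPM in CRE- AMs and 0 to 2.83 CPM in Tim4- KCs, so the ligand was kept on the AM side and the receptor on the KC side. Slc11a1, the phagosomal metal transporter, had 1257 to 1525 CPM (median 1383) in Tim4- KCs and 47.0, 32.5, 47.4, 34.4 and 54.6 CPM in CD11b+ AMs. All CD11b+ AM samples lay above the CRE- AMs (6.14 to 15.4 CPM), and the difference narrowed from 6.79 to 5.02 on the log2 scale. Ly6c2, a surface protein of classical monocytes, had 127, 92.7, 38.7, 128 and 177 CPM in CD11b+ AMs and 0 to 0.419 CPM in Tim4- KCs. This is the opposite side from Ccr2, which was higher in Tim4- KCs, and CRE- KCs had 0 to 0.361 CPM and CRE- AMs 0 to 0.725 CPM. Ccl9, a chemokine for myeloid cells, had 869, 542, 433, 499 and 632 CPM in CD11b+ AMs and 15.2 to 39.4 CPM (median 24.4) in Tim4- KCs, and its difference widened from -1.15 to -4.57.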
